A study of Canis lupus familiaris with 8 samples.

Results

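The genes of the proteasome were measured in the hearts of 8 male dogs of 23 to 27 kg on Affymetrix canine arrays, with 1 array for each dog. For 2 weeks 4 dogs drank water with added methionine, which raises homocysteine in the blood, a state called hyperhomocysteinemia (HHcy), and 4 dogs without it were controls. No genotype, strain or age is given for either group, and the tissue is labelled cardiac with no chamber named. The series asks how gene expression in the heart changes in chronic HHcy. Proteasome genes were all those whose probe set carries a single symbol starting PSMA, PSMB, PSMC, PSMD, PSME, PSMF or PSMG followed by a number. That gave 37 genes out of 6540 with a single symbol, each read on its brightest probe set by mean signal over the 8 arrays, and 36 of the 37 were bright enough to be tested. They were 7 genes of the alpha ring, 5 of the constitutive beta ring, 2 immune subunits, 6 cap ATPases, 7 cap non-ATPases, 3 chaperones of the cap base, 5 activators and inhibitors and 2 chaperones of the core.

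The proteasome is the cell's main machine for breaking down proteins tagged with ubiquitin. Its core is a barrel of stacked rings, the outer ones built of alpha subunits that form the gate and the inner ones of beta subunits, some of which cut proteins. A regulatory cap with a ring of ATPases unfolds the substrate and feeds it into the barrel. In cells exposed to interferon, immune subunits take the place of the cutting beta subunits, and this form supplies peptides for class I antigen presentation. In heart muscle, where contractile proteins are replaced continually, the proteasome is a major route of protein turnover.

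No proteasome gene passed the test between HHcy and control hearts. PSMB8 and PSMB9, the immune subunits on the array, had the highest log2 fold changes of the 36, 0.86 ± 0.28 and 0.84 ± 0.36 (SE, 4 arrays per group). PSMC5, an ATPase of the cap, had the lowest, -1.74 ± 0.43 (SE), and PSMB1, a beta subunit that does not cut, had -0.99 ± 0.36 (SE). With limma and Benjamini-Hochberg adjustment over 14301 probe sets, 0 of 36 genes passed an adjusted p of 0.05 in either direction, and the lowest adjusted p was 0.137, for PSMC5. Over all tested probe sets 14 passed as higher (0.0979%) and 0 as lower (0%).

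At an unadjusted p under 0.05 in limma, 2 of the 36 genes were higher in HHcy, PSMB8 and PSMB9, which is 5.56% of them against 11.9% of all probe sets and 11.7% when each gene is counted once, on its brightest probe set. In the lower direction there were 5 of 36, PSMC5, PSMB1, PSMG2, PSMB4 and PSMA2, which is 13.9% against 5.94% and 4.77%. These counts move with the scaling of the arrays: with median scaling 0 of the 36 were higher and 8 lower, where 5.10% of all probe sets were higher and 12.7% lower, and with quantile scaling 2 were higher and 3 lower, against 8.06% and 8.11%. Every HHcy array lay under every control array for 6 genes, the same 5 and PSME4, which is 16.7% of the 36 against 3.89% of all probe sets and 3.53% of genes. For 1 gene, PSMB8, the HHcy arrays were all above the controls, which is 2.78% against 7.49% and 8.36%. The log2 fold change was under 0 for 20 of 36 genes (55.6%), against 40.2% of all genes. The median over the 36 was -0.094, while that of all tested probe sets was 0.15 and that of the brightest probe set of each of 5013 genes was 0.14.

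**Figure D1:**
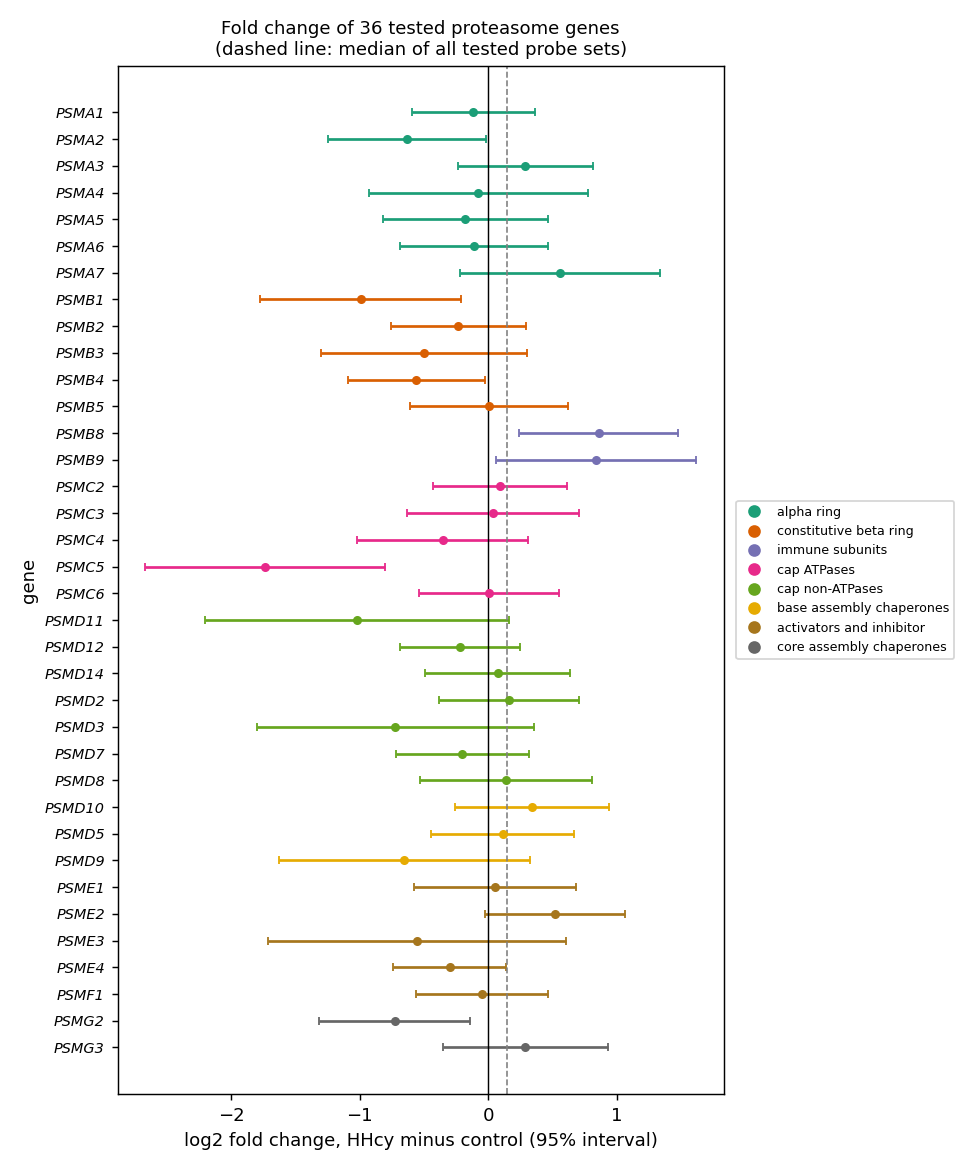
Log2 fold change (HHcy minus control, on the log2 scale of signal plus 24) of the 36 tested proteasome genes on the x axis, 1 gene per line, coloured by role. Points are limma estimates and bars their 95% intervals, and the dashed line is the median of all tested probe sets, 0.15. The intervals of PSMB8 and PSMB9 lie above 0 and those of PSMA2, PSMB1, PSMB4, PSMC5 and PSMG2 under 0, and the other 29 include it.

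HHcy 6, HHcy 5 and control 2 stood apart. A ratio of 3' to 5' signal was taken for actin and GAPDH, which rises as RNA is degraded. For actin it was 599.6 on HHcy 6, 15.3 on HHcy 5 and 0.378 to 2.49 on controls, and for GAPDH it was 10.5, 17.2 and 1.46 to 3.76. HHcy 7 had 2.67 for actin and 5.14 for GAPDH, both somewhat above every control. HHcy 8, with 1.69 and 3.56, lay within the range of the controls. Control 2 had the lowest of both ratios, 0.378 and 1.46. Mean correlation with the other arrays was 0.784 for HHcy 6, 0.857 for control 2, 0.887 for HHcy 5 and 0.900 to 0.907 for the rest. The summed signal of 9 cardiomyocyte markers, MYH7, TNNT2 and TTN among them, was 15257 on HHcy 6, 191526 to 223954 in the other HHcy dogs and 179266 to 280814 in controls. So HHcy 6 carries little of the heart muscle signal that its label implies. The summed signal of 3 smooth muscle markers was 60261 on that array, against 1614 to 6965 on the controls. Markers of some other cells also moved with the group. The sum of 13 macrophage and myeloid markers was 14325 to 27989 in HHcy and 7602 to 10999 in controls. At an unadjusted limma p under 0.05, 9 of the 13 were higher (69.2%, against 11.9% of all probe sets). ITGB2, also of this list, had a negative log2 fold change, -0.97. The sum of 7 fibroblast markers was 36649 to 84972 in HHcy and 20098 to 31817 in controls, though COL3A1 among them had a log2 fold change of -0.48. That of 4 lymphocyte markers was 647 to 1069 and 225 to 645, apart by a narrow margin. The sums of 5 endothelial markers, 22969 to 32723 in HHcy and 21486.5 to 29349 in controls, overlapped. So did those of 2 adipocyte markers, 158 to 874 and 91.6 to 333. No erythrocyte marker of the list was on the array. POSTN (fibroblasts), CD8A (lymphocytes), TEK (endothelium) and LEP (adipocytes) were too dim to test. The part of RNA quality and of these cells in the results below was not tested. In whole tissue, fewer cells of a type and less RNA per cell cannot be told apart.

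HHcy 6 was the lowest of the 8 arrays for 14 of the 36 proteasome genes, which is 38.9% of them. The share was 17.9% over all probe sets and 21.3% over genes, each on its brightest probe set. The proteasome genes' median log2 difference from the control mean was -0.29 on that array. There the median of all probe sets was 0.38, and that of the brightest probe set of each gene was 0.27. For the 3 other HHcy dogs the proteasome median ran from -0.034 to 0.031, inside the -0.21 to 0.084 of the controls. The medians of all probe sets on HHcy 5, HHcy 7 and HHcy 8 were 0.21, 0.049 and 0.12. Each was above the proteasome median of its array, narrowly so on HHcy 7. Without HHcy 6 the median log2 fold change of the 36 genes was -0.026, against 0.11 or more for all probe sets. The genes at an unadjusted limma p under 0.05 were then PSMB8 and PSME2 in the higher direction (8.62% of all probe sets) and PSMB1, PSMC5, PSMD3 and PSMG2 in the lower one (6.24%). Without both HHcy 5 and HHcy 6 they were PSMB8 and PSMB9 (4.26%) and PSMC5 and PSMD3 (4.07%). PSMB8, PSMC5 and PSMD3 were thus at this level in both settings, which share arrays and so are no repeats of each other. With all 8 arrays PSMD3 was not at this level (limma unadjusted p 0.169), and its lowest array was HHcy 7. The spread between dogs was moderate, with a median SD of the log2 signal of 0.34 in controls, 0.34 in HHcy and 0.24 in HHcy without HHcy 6. Over the brightest probe sets of all genes the same medians were 0.40, 0.44 and 0.29.

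**Figure D2:**
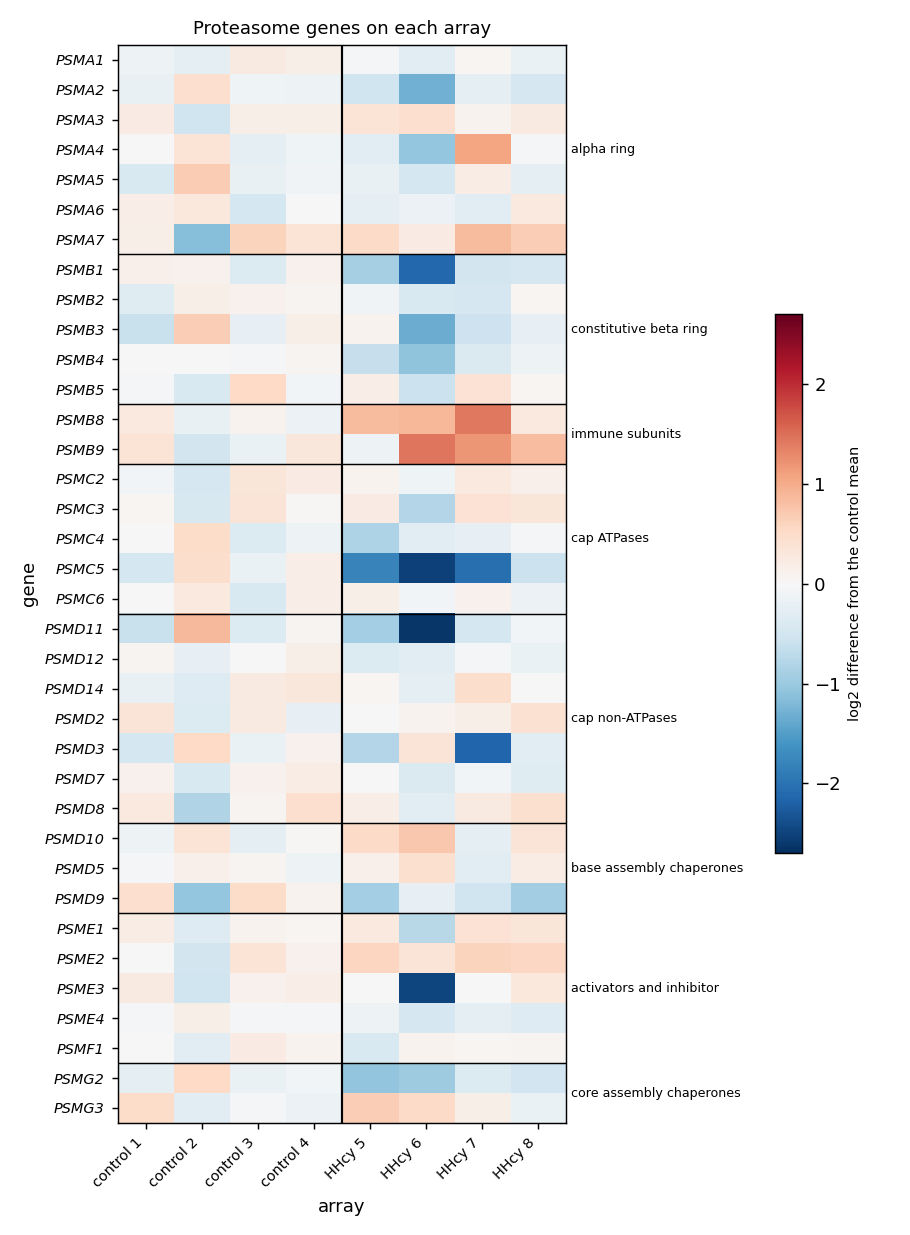
Log2 difference of each array from the control mean (colour, red above and blue below) for the 36 tested proteasome genes in rows, grouped by role, and the 8 arrays in columns, controls left of the black line. The strongest blue cells lie on HHcy 6, at PSMD11 (-2.62), PSMC5 (-2.53) and PSME3 (-2.49), and red cells stand together at PSMB8 and PSMB9 on HHcy 6 and HHcy 7.

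The alpha ring, which forms the gate of the core and the surface that caps dock on, had a median of -0.11 (log2 fold change) over its 7 genes. PSMA2 had signals of 2608, 4135, 2799 and 2749 on control 1 to 4 and of 2068, 1218, 2546 and 2210 on HHcy 5 to 8. All HHcy arrays were under all controls, with control 2 high and HHcy 6 low within their groups. Its log2 fold change was -0.63 ± 0.28 (SE; limma adjusted p 0.273), -0.41 without HHcy 6 and -0.13 with the 3'/5' covariate, each array's log2 ratio averaged over GAPDH and actin, in the fit (limma adjusted p 0.956). This covariate was -0.43 to 1.51 in controls and 1.29 to 6.31 in HHcy, so it moved with the group. In that fit its part and that of HHcy cannot be fully told apart. PSMA7 had 3145, 1255, 4269 and 3619 in controls and 4016, 3265, 5042 and 4443 in HHcy. The groups overlapped, and the control spread came mostly from the low value of control 2. The log2 fold change of PSMA7 was 0.56 ± 0.36 (SE; limma adjusted p 0.418), and 0.18 without control 2. The remaining alpha subunits, PSMA1, PSMA3, PSMA4, PSMA5 and PSMA6, had log2 fold changes of -0.12, 0.29, -0.077, -0.18 and -0.11, with groups that overlapped in each.

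With all 8 arrays the constitutive beta ring had the lowest median of the roles, -0.50 over 5 genes, and it was -0.22 without HHcy 6. The rank was lost without control 2, where the ring's median was -0.28 and that of the cap non-ATPases -0.29. With the 3'/5' covariate the ring's median was -0.092, and the rank was lost there too, with the core chaperones at -0.17 or lower. PSMB1 and PSMB4 are structural beta subunits with no cutting site of their own. PSMB1 had signals of 2711, 2649, 1890 and 2648 in controls and of 1306, 544, 1728 and 1784 in HHcy. HHcy 6 was far under the others, and the groups stayed apart by a narrow margin between control 3 and HHcy 8. On the log2 scale PSMB1 had -0.99 ± 0.36 (SE), that is 1.99-fold lower (limma adjusted p 0.204). It was -0.61 without HHcy 6 and -0.25 with the 3'/5' covariate (limma adjusted p 0.940).

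PSMB4 had 5014, 4993, 4891 and 5278 in controls and 3263, 2362, 3836 and 4601 in HHcy. Its controls lay close together, with a mean of 5044 ± 165 (SD, n = 4), and its HHcy arrays were lower and more spread, at 3516 ± 945 (SD, n = 4). On the log2 scale it had -0.56 ± 0.25 (SE; limma adjusted p 0.266), -0.38 without HHcy 6 and -0.18 with the 3'/5' covariate (limma adjusted p 0.945). PSMB5, which carries the chymotrypsin-like cutting site, had signals of 7977, 6233, 11978 and 7876 in controls and of 9421, 5493, 10815 and 8545 in HHcy. The groups lay over each other, with a log2 fold change of 0.0069 and a 95% interval from -0.61 to 0.63. PSMB2 and PSMB3, further beta subunits with no cutting site of their own, had -0.23 and -0.50, with groups that overlapped. PSMB3, whose value is the median of the ring, had -0.22 without HHcy 6, -0.28 without control 2 and 0.034 with the 3'/5' covariate.

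The immune subunits PSMB8 and PSMB9 both had positive log2 fold changes. PSMB8, which replaces PSMB5 in the immune form, had signals of 732, 526, 652 and 541 in controls and of 1120, 1148, 1670 and 735 in HHcy. HHcy 7 was the highest, and HHcy 8 was level with control 1, so that the groups stayed apart by only a few units. This is a log2 fold change of 0.86 ± 0.28 (SE), or a fold of 1.82 (limma adjusted p 0.180), and it was 0.85 without HHcy 6. Leaving out 1 array gave 0.67 to 1.06, and over the 22 alternatives the limma adjusted p ran from 0.136 to 0.914. With the 3'/5' covariate PSMB8 was no longer at an unadjusted limma p under 0.05. Its log2 fold change was 0.56 to 1.06 over the 22 alternatives, the fit with this covariate among them. Another PSMB8 probe set, also without overlap, had 0.91 ± 0.27 (SE; limma adjusted p 0.162), and a further one, with overlap, had 0.31 ± 0.32 (SE; limma adjusted p 0.619).

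PSMB9, which replaces the constitutive subunit PSMB6, had 892, 483, 603 and 861 in controls and 627, 1929, 1613 and 1245 in HHcy. HHcy 5 lay among the controls while the other HHcy arrays lay above all of them. PSMB9 had a log2 fold change of 0.84 ± 0.36 (SE; limma adjusted p 0.256), and 0.63 without HHcy 6. Its limma adjusted p ran from 0.243 to 0.933 over the 22 alternatives. With the 3'/5' covariate PSMB9, too, was no longer at an unadjusted limma p under 0.05. Over the same alternatives, that fit included, its log2 fold change was 0.54 to 1.16. On the 13 macrophage markers, whose cells carry immune subunits as a rule, the HHcy arrays' medians were 0.65 to 1.501 above the control mean on the log2 scale, and their part in the PSMB8 and PSMB9 values was not tested.

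The difference between PSMB8 and PSMB5 was taken within each array, so that the scaling of an array cancels. Being a difference of separate probe sets, it is read only between arrays. Log2 PSMB8 minus log2 PSMB5 was -3.40, -3.51, -4.15 and -3.81 in controls and -3.05, -2.24, -2.68 and -3.50 in HHcy. HHcy 8 lay among the controls and the other HHcy arrays lay above them. The groups differed by 0.85 (p = 0.0571 by exact permutation, two-sided, where 4 against 4 arrays cannot go below 0.0286), which is short of 0.05. The difference was 0.64 without HHcy 6 (exact permutation p = 0.114) and 1.06 without HHcy 8 (exact permutation p = 0.0286). The latter p is the lowest that 4 against 3 arrays can give. It follows from leaving out the HHcy array that lay among the controls. The difference was 0.67 with the mean over all tested probe sets of each gene (exact permutation p = 0.171), and 0.53 with the 3'/5' covariate, where no test was made. This was the only pair compared, since PSMB6, PSMB7 and PSMB10 were not analysed here.

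**Figure D3:**
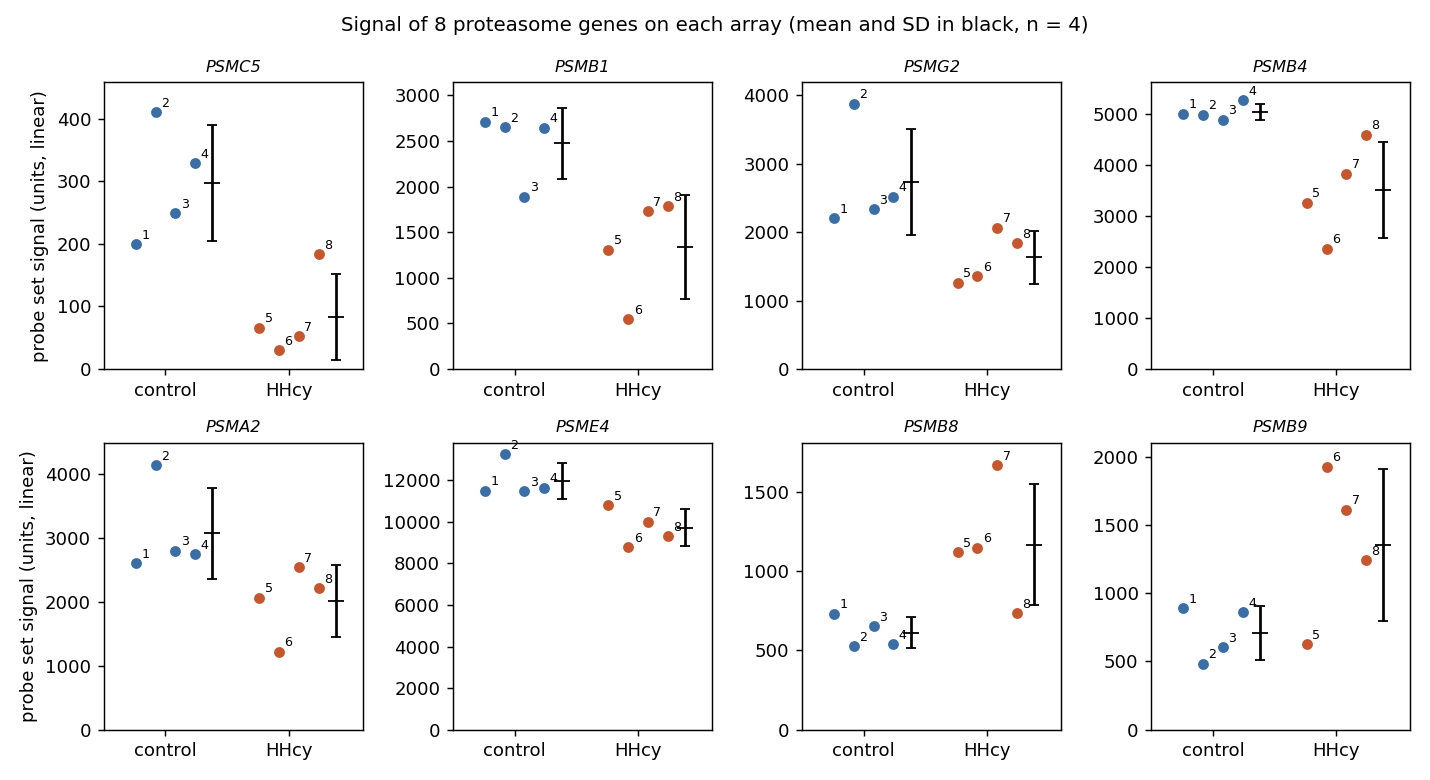
Probe set signal (linear units, y axis from 0) of 8 proteasome genes on each array, 1 numbered point per dog, controls in blue and HHcy in orange, with the mean and SD (n = 4) in black. PSMC5, PSMB1, PSMG2, PSMB4, PSMA2 and PSME4 are lower on every HHcy array than on any control, PSMB8 is higher on every HHcy array, and PSMB9 overlaps through HHcy 5.

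The ring of cap ATPases, which unfolds substrates, had a median of 0.0090 (log2 fold change) over the 5 tested genes. PSMC5 stood far below it. Its signals were 200, 410, 249 and 329 in controls and 65.6, 30.0, 52.0 and 183 in HHcy. Only HHcy 8 came near the lowest control, and none of the HHcy arrays reached it. The means were 82.7 ± 68.6 in HHcy against 297 ± 92.4 in controls (SD, n = 4 each). The log2 fold change of -1.74 ± 0.43 (SE) is 3.33-fold lower (limma unadjusted p 0.0017, adjusted p 0.137). With these low HHcy signals it depended on the pseudocount, at -2.00 with 6 and -1.18 with 96 in place of 24. It was -1.47 without HHcy 6 (limma adjusted p 0.178) and -2.12 without HHcy 8 (limma adjusted p 0.0624). With the 3'/5' covariate it was -1.01 (limma adjusted p 0.906), and over its 21 alternatives the adjusted p ran from 0.0624 to 0.906.

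The other tested ATPases of the ring had smaller fold changes. PSMC4 had signals of 220, 316, 165 and 197 in controls and of 113, 172, 183 and 210 in HHcy. The groups overlapped, with HHcy 5 the lowest array, and the log2 fold change was -0.35 ± 0.30 (SE; limma adjusted p 0.544). PSMC2, PSMC3 and PSMC6 had 0.093, 0.041 and 0.0090. A dimmer PSMC2 probe set had -1.26 ± 0.48 (SE; limma adjusted p 0.219), so the probe sets of this gene disagree. PSMC1 was too dim to be tested, with signals of 157, 60.8, 87.9 and 48.3 in controls and of 82.0, 71.8, 46.8 and 14.6 in HHcy. The difference between PSMC5 and its ring neighbours was not tested.

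The 7 cap subunits without ATPase activity, which recognise ubiquitin chains, remove them or hold the lid together, had a median of -0.20, and none had groups apart. PSMD11, a scaffold of the lid, had signals of 125, 391, 150 and 213 in controls and of 94.9, 12.6, 138 and 190 in HHcy. Its log2 fold change of -1.02 ± 0.54 (SE; limma adjusted p 0.341) rested on a low HHcy 6 and a high control 2. It was -0.49 without HHcy 6, and another PSMD11 probe set had 0.76 ± 0.37 (SE; limma adjusted p 0.308). PSMD3, also of the lid, had 135, 299, 171 and 214 in controls and 103, 258, 25.9 and 157 in HHcy. Here HHcy 7 and not HHcy 6 was the low array. PSMD3 had a log2 fold change of -0.72 ± 0.49 (SE; limma adjusted p 0.443), -0.25 without HHcy 7 and -1.08 without HHcy 6. PSMD14, the subunit that strips ubiquitin from substrates, had 0.073 and its partner PSMD7 had -0.20. PSMD2, a large subunit of the cap's base, had 0.17, and PSMD8 and PSMD12 of the lid had 0.14 and -0.22.

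Of the 3 chaperones that help build the base of the cap and leave it afterwards, PSMD9 had signals of 150, 38.02, 157 and 112 in controls and of 43.9, 86.2, 63.3 and 42.7 in HHcy. Control 2 lay under all HHcy arrays and the other controls above them, with a log2 fold change of -0.65 ± 0.45 (SE; limma adjusted p 0.447). It was -1.0 without control 2. PSMD10, also known as gankyrin, had 1008, 1429, 914 and 1130 in controls and 1598, 1850, 925 and 1417 in HHcy. The groups overlapped through HHcy 7 and HHcy 8. Its log2 fold change was 0.34 ± 0.27 (SE; limma adjusted p 0.514), while its other probe sets had -0.22 and -0.79. PSMD5 had 0.11.

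Among the activators, which dock on the core in place of the cap, PSME4 and PSME2 lay in opposite directions. PSME4, the large nuclear activator PA200, had signals of 11502, 13258, 11466 and 11656 in controls and of 10797, 8776, 10018 and 9325 in HHcy. All HHcy arrays lay under all controls, with means of 9729 ± 875 and 11970 ± 862 (SD, n = 4 each). That is a log2 fold change of -0.30 ± 0.20 (SE; limma adjusted p 0.437), and a dimmer PSME4 probe set had -0.11 with groups that overlapped. PSME2, a subunit of the interferon-inducible activator PA28, had 773, 544, 1011 and 843 in controls and 1165, 1000, 1190 and 1154 in HHcy. HHcy 6 lay just under control 3, and all other HHcy arrays above every control. The log2 fold change of PSME2 was 0.52 ± 0.25 (SE; limma adjusted p 0.295), 0.58 without HHcy 6 and 0.36 without control 2.

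PSME1, the partner of PSME2 in the same activator, had a log2 fold change of 0.056 (limma adjusted p 0.933), with HHcy 6 at 2906 and the other HHcy arrays from 5848 to 6430. PSME3, a nuclear activator of the same family, had -0.55 ± 0.53 (SE; limma adjusted p 0.585), which turned to 0.092 without HHcy 6. HHcy 6 read 124 for PSME3 and the remaining HHcy arrays 792 to 983, close to the 543 to 957 of the controls. PSMF1, an inhibitor of the core, had -0.049.

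PSMG2, a chaperone that holds alpha subunits together while their ring forms, had signals of 2204, 3876, 2333 and 2519 in controls and of 1261, 1356, 2064 and 1841 in HHcy. All HHcy arrays lay under all controls, HHcy 7 by a narrow margin. PSMG2 had a log2 fold change of -0.73 ± 0.27 (SE), 1.66-fold lower (limma adjusted p 0.212). It was -0.65 without HHcy 6 and -0.34 with the 3'/5' covariate (limma adjusted p 0.933). PSMG3, a chaperone of the same process, had 428, 233, 289 and 263 in controls and 484, 434, 335 and 257 in HHcy. These overlapped, with a log2 fold change of 0.29 ± 0.29 (SE; limma adjusted p 0.607).

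Probe sets of the same gene did not always share a sign. The 37 genes had 58 probe sets, of which 50 were tested, and 10 genes had several tested ones. In 5 of these, PSMA4, PSMB5, PSMB8, PSME2 and PSME4, all tested probe sets had the same sign, though sizes could differ. PSMA4 had -0.077 on the brightest and -0.78 ± 0.45 (SE; limma adjusted p 0.370) on another of similar brightness. PSME2 had 0.52 on the brightest and 0.23 ± 0.25 (SE; limma adjusted p 0.633) on its other tested probe set. In the other 5, PSMA3, PSMA6, PSMC2, PSMD10 and PSMD11, the probe sets had both signs. A PSMA6 probe set dimmer than the brightest had -1.08 ± 0.47 (SE; limma adjusted p 0.263), against -0.11 on the brightest. PSMC5, PSMB1, PSMG2, PSMB4, PSMA2 and PSMB9 rest on a single tested probe set, so their values have no such check. The probe sets used for PSMC5, PSMB5, PSMB8 and PSME2, among others, carry Affymetrix suffixes for probes that can match more than a single transcript. PSMD4, a ubiquitin receptor of the cap, shared its probe set's annotation with PIP5K1A and was not counted. That probe set had -0.51 ± 0.24 (SE; limma adjusted p 0.290), with every HHcy array under every control.

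**Figure D4:**
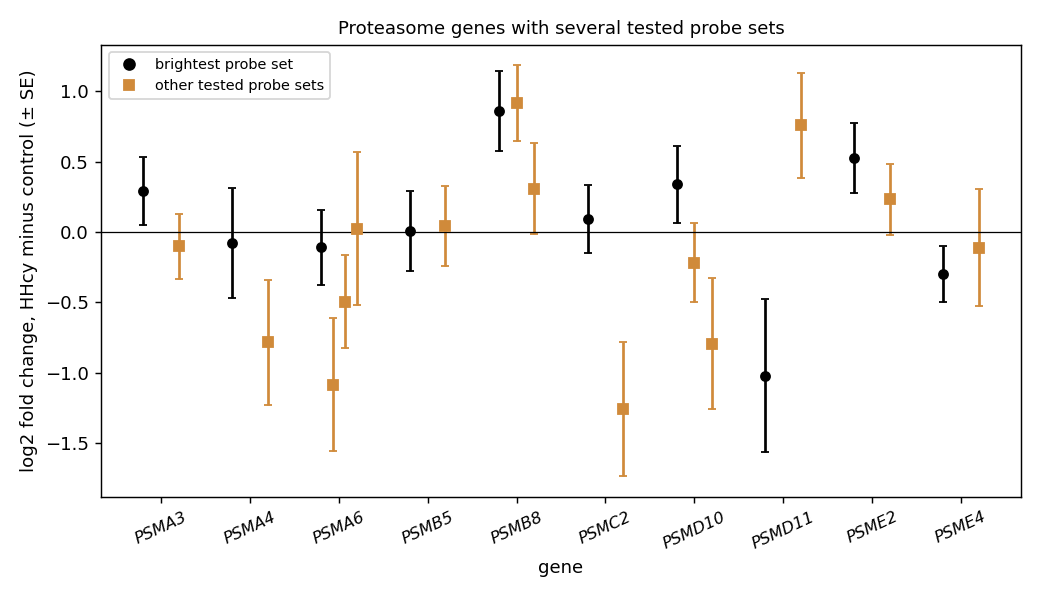
Log2 fold change (HHcy minus control) with its SE for every tested probe set of the 10 proteasome genes that have several, brightest in black and the others in orange. The probe sets of PSMD11 lie at -1.02 and 0.76 and those of PSMC2 at 0.093 and -1.26, while those of PSMB8 lie at 0.86, 0.91 and 0.31.

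Genes that work beside the proteasome were read from 4 lists, and none of their members passed either. Of 18 partners and transcription factors of the proteasome, 11 were tested, with a median log2 fold change of 0.064, 1 higher and 1 lower at an unadjusted limma p under 0.05. Over all probe sets, here and for the lists below, 11.9% were higher and 5.94% lower at that level. UBE3C, a ubiquitin ligase bound to the cap, had 13.9, 78.2, 122 and 91.4 in controls and 225, 246, 125 and 202 in HHcy. HHcy 7 lay only just above control 3, and the log2 fold change was 1.28 ± 0.45 (SE; limma adjusted p 0.197), or 0.80 with a pseudocount of 96. ZFAND5, a zinc finger protein that stimulates the proteasome, had 4497, 9070, 3716 and 3657 in controls and 3010, 3104, 3068 and 2896 in HHcy. HHcy arrays lay close together under all controls, and control 2 was high. ZFAND5 had a log2 fold change of -0.68 ± 0.30 (SE; limma adjusted p 0.263), and -0.38 without control 2. NFE2L1, the transcription factor that drives proteasome genes when the proteasome is impaired, had -0.026 (limma adjusted p 0.971).

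Of 26 genes of ubiquitin, its activation and its shuttles, 13 were tested, with a median of -0.11 and 0 at an unadjusted limma p under 0.05. UBE2N and UBE2D2, ubiquitin-conjugating enzymes, had 0.51 ± 0.25 and 0.52 ± 0.28 (SE; limma adjusted p 0.306 and 0.350), and the ubiquitin gene UBB had -0.11. Of 16 ubiquitin ligases of heart and muscle, 6 were tested, with a median of -0.23 and 0 at an unadjusted limma p under 0.05. UBE4B, a ubiquitin chain elongation factor, had -1.15 ± 0.57 (SE; limma adjusted p 0.313), and -0.51 without HHcy 6, where its signal was 12.9. MDM2, the ligase of p53, had -0.36 ± 0.23 (SE; limma adjusted p 0.429). The atrophy ligase FBXO32 had 0.21 (limma adjusted p 0.787).

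Of 11 genes of class I antigen processing, the pathway fed by the immune subunits, 4 were tested, with a median of 0.30 and 1 higher at an unadjusted limma p under 0.05. TAP1, which carries peptides into the endoplasmic reticulum, had 271, 171, 196 and 141 in controls and 492, 554, 446 and 370 in HHcy. The groups were well apart, and the log2 fold change was 1.18 ± 0.27 (SE; limma adjusted p 0.121), 1.10 without HHcy 6. TAP2, its partner, had 0.38 ± 0.35 (SE; limma adjusted p 0.570), and B2M, the light chain of class I molecules, had 0.22 (limma adjusted p 0.642). PDIA3, the only tested gene of this list with a negative value, had -0.55 ± 0.54 (SE; limma adjusted p 0.595).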

How the data were processed

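Total RNA from cardiac tissue of 8 dogs was hybridised to Affymetrix canine arrays, per the labels, which group the dogs by title and give no batch. The authors deposited 1 linear intensity per probe set and array. The submitters' processing notes name MAS5 for it, of a version not given in the sources used here. Mean signals on the linear scale, with 2% left out at each end, were alike, 500.08 to 500.10 units, so no scaling was added. Platform annotation gave 1 symbol for 10549 of 23913 probe sets, several for 138 and none for 13226, and 33 of the 37 proteasome genes matched the RefSeq gene table by identifier.

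Values were analysed as log2(value + 24), 24 being near their 20th percentile, which understates folds of dim genes. The 77 control probe sets and the dimmest 40% were left out, leaving 14301. The comparison used limma 3.58.1 in R 4.3.3 (lmFit, eBayes with trend, Benjamini-Hochberg at 0.05). Errors are SE for log2 fold changes and SD for signals. Depth does not apply to arrays, and their number, 4 per group, limits the precision. Named genes were the 4 of lowest p in each direction, PSMC5 and PSMB1, and the 2 of lowest p in each role and, for the other lists, in each list. The genes and lists were chosen with earlier results of these data known. PSMC3IP and PSME3IP1, which are interactors, were not counted.

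Tested on simulated data for this comparison (14301 probe sets, 50 per size), the procedure found 18% of the changes of 1 log2 unit, 64% of those of 2, 74% of those of 3 and 92% of those of 4. Of its 129 calls 5 were false, and it made 0 calls where nothing changed. The simulated noise was drawn independently for each probe set and array. These figures therefore do not cover arrays that differ as a whole, such as HHcy 6. Alternatives were other scaling (quantile, or the median or trimmed mean of log2 values), pseudocounts of 6 and 96, other filters (none, dimmest 60%) and variance models, array weights, other probe set choices, leaving out each array, leaving out HHcy 5 and HHcy 6, and the mean log2 3'/5' ratio as a covariate.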

Additional observations from a re-analysis of the deposited data

Results flagged for a closer look

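In 10 of 74 sets of 4 arrays (each group of each of the 37 genes), the array at an end of the range stood far from the other 3, past Dixon's 95% critical value, and chance flags about 1 in 20 sets. The share of such sets over all genes was not counted, and HHcy 6, HHcy 5 and control 2 stood apart as whole arrays. The count is therefore not read as particular to proteasome genes. Control 2 was that array for 5 of them. It was high for PSMA2 (4135) and PSME4 (13258) and low for PSMA3 (3857), PSMD7 (1172) and PSME3 (543). Control 3 was low for PSMB1 (1890). HHcy 6 was low for PSMC3, a cap ATPase (1694), and for the activators PSME1 (2906) and PSME3 (124). HHcy 5 was low for the inhibitor PSMF1 (1174).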

How the results depend on the processing

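No paired analysis was possible because the groups share no replicate number. Under all 22 alternatives, 0 of the proteasome genes tested passed in limma in either direction (36 genes, or 33 with the dimmest 60% left out). PSMB8, PSMB9, PSME2, PSMB1, PSMB4, PSMA2 and PSMG2 kept their sign in all 22 and PSMC5 in the 21 that tested it, though sizes moved as given above and below. Of the 20 tested proteasome genes outside the rule for named genes, 16 changed sign under at least 1 alternative and 4 did not. Cause was not tested for any change below. Leaving out 1 array gave 3 to 22 probe sets higher and 0 to 9 lower, 1 to 2 proteasome genes higher and 2 to 5 lower at an unadjusted p under 0.05 (8.62% to 13.3% and 3.45% to 6.62% of all probe sets), and a PSMB8 minus PSMB5 difference of 0.64 to 1.06. Without HHcy 5 and HHcy 6, 5 probe sets were higher and 2 proteasome genes lower (4.07% of all), and PSMG3 turned to -0.011.

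With the log2 3'/5' ratio added to the fit, 5 probe sets were higher, and 0 proteasome genes were higher and 1, PSMC5, lower at an unadjusted p under 0.05 (3.34% and 2.13% of all). Medians were then 0.054 over all 36, 0.073 for the alpha ring, -0.092 for the constitutive beta ring, 0.17 for cap non-ATPases and 0.40 for activators and inhibitor, and PSMD11, PSMG3 and UBE4B turned to 0.23, -0.084 and 0.098. Median scaling moved the median of all probe sets from 0.15 to -0.15, trimmed-mean scaling to -0.10 and quantile scaling to 0.012. Median scaling gave 2 probe sets lower, 0 proteasome genes higher and 8 lower at an unadjusted p under 0.05 (5.10% and 12.7% of all), PSMG3 at -0.013, and PSMB8, PSMB9 and PSME2 at 0.56, 0.54 and 0.22. Its medians were -0.40 over all 36, -0.41 (alpha ring), -0.29 (ATPases), -0.50 (non-ATPases), -0.19 (base chaperones), -0.35 (activators and inhibitor) and -0.52 (core chaperones). Trimmed-mean scaling, of log2 values, gave 2 probe sets lower, 0 proteasome genes higher and 7 lower at an unadjusted p under 0.05 (6.12% and 11.5% of all), and medians of -0.35, -0.36, -0.24, -0.45, -0.14 and -0.47 over all 36, the alpha ring, ATPases, non-ATPases, base chaperones and core chaperones. Quantile scaling gave 7 probe sets higher and 3 proteasome genes lower (8.11% of all). With array weights 61 probe sets were higher and 15 lower, and 1 proteasome gene was higher (12.3% of all). With no intensity trend 1 probe set was lower, and 1 proteasome gene was higher and 3 lower (12.3% and 5.34% of all). With the dimmest 60% left out 9 probe sets were higher. With the mean over all probe sets of a gene, the median was -0.35 for ATPases and -0.22 for base chaperones, and PSMD10 turned to -0.22. With a pseudocount of 96, PSMD11, PSMD3 and PSMD9 had -0.64, -0.45 and -0.40. With 4 arrays per group, changes near 1 log2 unit were seldom recovered in simulation, and signals near 24, as of PSMC5 in HHcy, limit the folds.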
